A study of Homo sapiens with 10 samples.

Results

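The untreated chase of a K562 SLAM-seq time course was followed gene by gene, separating the loss of RNA made before the chase from the appearance of RNA made during it. K562 is an established human chronic myeloid leukaemia line with erythroid features. The cells were grown for 12 h in 30 µM 4-thiouridine, a uridine analogue that is built into new RNA, with fresh medium every 3 h. They were then washed into 3 mM uridine with DMSO, the solvent control, and taken at 0, 2, 4 and 8 h. Parallel chases held 1 µM JQ1, a BET bromodomain inhibitor, or 1 µM AZ-5576, a CDK9 inhibitor, and shared the 0 h library. All cells, DMSO included, had thus been through the same 4-thiouridine pulse, all chases held uridine, and no library of cells without 4-thiouridine was analysed here. Fly S2 RNA was added at 5% to the purified RNA, thiol groups were modified with iodoacetamide so that labelled uridines are read as T-to-C changes, and 3′ end libraries were sequenced (QuantSeq).

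The deposited tables give, per gene, all human reads (total) and the reads called nascent, here named labelled. Unlabelled reads are the total minus the labelled reads. They include RNA made after the wash, RNA older than the pulse and labelled RNA whose read showed no change, and these cannot be told apart. Genes were kept where the labelled count averaged at least 20 over the 10 libraries, which left 8817 of 59204 listed human genes, of which 7815 were protein-coding, 483 processed pseudogenes and 127 lincRNAs. Just inside this limit were ZBTB9, ST6GALNAC4 and CDKN2D with means of 20.0 labelled reads. Just outside were RPL23AP57, CIR1P1 and GNRH1 with 19.9. The limit is set on labelled reads, so genes that took up little label were left out: MT-CO1, with a mean of 8.0 labelled reads, was one of them.

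In a pulse-chase experiment the level of each RNA is the balance of transcription and decay. Labelled RNA can only be lost once labelled precursors are gone, while unlabelled RNA gains whatever the cell still transcribes. mRNAs for transcription factors and feedback regulators are known to turn over fast, which lets their level follow transcription closely. mRNAs for ribosomal proteins and metabolic enzymes are known to be long-lived.

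Each condition had 1 library (n = 1). DMSO libraries and the 0 h library held 11644394 to 16008906 total reads, 2113477 to 3868420 labelled reads and 1208073 to 1763347 fly reads. All levels of single genes below are reads per 1000000 fly reads of the same library, called fly-scaled reads. Because fly RNA was added in proportion to RNA mass, these levels are relative to total RNA and not to cell number. A change in cell number or in total RNA per cell does not show in them. Growth during the chase dilutes labelled RNA, so the half-lives below include dilution. Of 14 erythroid and megakaryocytic markers, 12 were above 10 CPM (counts scaled to the human total of a library) in all 4 libraries. The summed CPM of the 14 ran from 10003 to 12667, most of it from HBG1 (4472 to 5704 CPM) and HBG2 (3433 to 4671 CPM). Of 25 markers of other cell types 6 passed that level, their summed CPM ran from 746 to 970, and PDGFRB and VWF had no read in these libraries. Those 6 were the epithelial genes KRT8, KRT18, KRT19 and EPCAM, and CD3D and LYZ, genes of other blood cells.

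Labelled reads per fly read were higher at 2 h than at 0 h and lower at each time after that. Over all human genes, the 0 h library held 2.61 labelled reads per fly read, and the 3 DMSO libraries held 2.81, 1.85 and 1.20 in order of time. The labelled share of reads, which needs no fly scale, was 32.0%, 29.1%, 20.9% and 13.2%. The exact 95% binomial interval of the first share ran from 31.9% to 32.0%. Such intervals cover counting error only, not differences between cultures. For the median kept gene the labelled level was 107%, 66.2% and 34.3% of 0 h after 2, 4 and 8 h of chase. Its labelled share went from 53.8% to 41.7%, 24.0% and 10.3%. Between 0 and 2 h 3485 of the 8817 genes (39.5%) had a lower labelled level. Between 2 and 4 h 8393 did (95.2%), and between 4 and 8 h 8331 (94.5%). Over all genes the labelled reads per fly read at 2 h were 1.07 times the 0 h value in DMSO, 1.05 times in AZ-5576 and 0.881 times in JQ1. The 2 h value was thus above 0 h in 2 of the 3 chases, and the cause was not tested.

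Unlabelled reads moved the other way. The unlabelled level of the median gene stood at 148%, 200% and 278% of 0 h in the 3 DMSO libraries in order of time. In 5309 genes (60.2%) it was higher at every step. The total level of the median gene was 124%, 123% and 141% of 0 h. In the median gene of this set, per fly read, the gain of unlabelled reads was thus larger than the loss of labelled ones. Summed over all human genes the rise was smaller. Unlabelled reads per fly read were 1.23, 1.26 and 1.42 times the 0 h value, and total reads 1.18, 1.08 and 1.11 times.

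**Figure D1:**
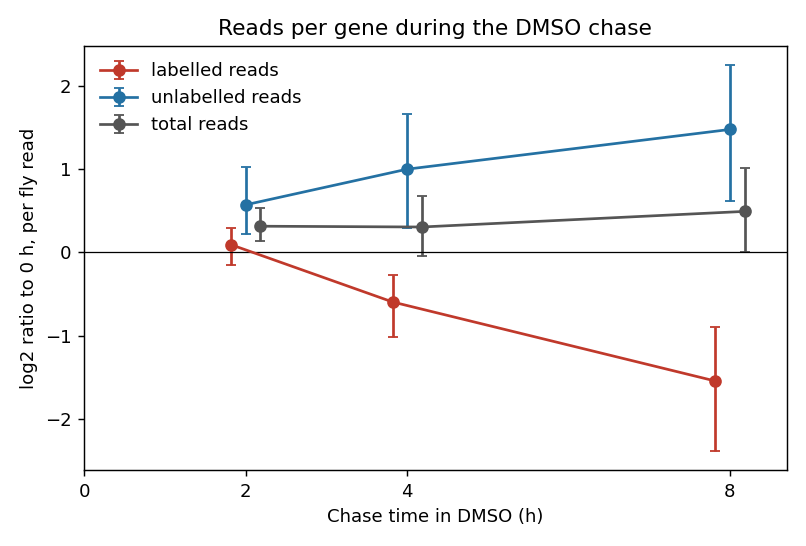
Median log2 ratio to the 0 h library, per fly read, of labelled, unlabelled and total reads over the 8817 genes (y axis) against hours of chase in DMSO (x axis, points set slightly apart). Bars run from the lower to the upper quartile of genes, with 1 library per time. The labelled median is 0.09 at 2 h, -0.60 at 4 h and -1.54 at 8 h, while the unlabelled median reaches 1.47.

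A straight line in log2 reads over hours was fitted per gene with edgeR's quasi-likelihood test, with a common 0 h level and 1 slope for each chase. A slope below 0 gives a half-life as its inverse. In 5332 genes the labelled level was higher at 2 h than at 0 h, so a straight line from 0 h does not follow their early course. The half-lives are averages over a chase in which the loss was not steady. Labelled slopes in DMSO were below 0 and past the threshold (Benjamini-Hochberg adjusted p under 0.05) in 7787 genes (88.3% of those tested), and above 0 in 4 (0.0454%). The median slope was -0.22 log2 units per hour. The median half-life over the 8705 genes with a slope below 0 was 4.45 h, with quartiles of 3.05 and 6.94 h. A half-life under 2 h was fitted for 448 genes, 2 to 4 h for 3306, 4 to 8 h for 3259, 8 to 16 h for 1315 and over 16 h for 377. Without the 8 h DMSO library 3360 genes were called and the median half-life was 5.16 h. Without the 0 h library the median half-life was 4.04 h. The log ratio of labelled to unlabelled reads, which compares reads within 1 library, had a slope below 0 in 7962 of 8698 genes tested by limma (91.5%) and above 0 in 8 (0.092%).

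Because the fit shares the 0 h level with both inhibitor chases, slopes were also fitted on the DMSO and 0 h libraries alone. The labelled slope differed by over 0.1 log2 units per hour in 57 genes and by over 0.2 in 2.

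The 10 genes with the fastest loss, among those with at least 100 labelled reads on average and a lower level at every step, were SUV39H1, GEMIN4, DNAJB1, TMEM223, MTND1P23, BRF2, PUS3, RRS1, MT-CYB and MT-ND1. SUV39H1 (chrX:48695554-48709012, plus strand, GRCh38), a histone H3 lysine 9 methyltransferase, had 209, 146, 38.7 and 1.7 labelled fly-scaled reads at 0, 2, 4 and 8 h. These rest on 309, 176, 53 and 3 reads. The half-life was 1.22 h (slope -0.82, SE 0.06, adjusted p = 1.87e-36). Its unlabelled level was 282, 351, 389.6 and 325, close to flat, and did not pass the test (slope 0.04, SE 0.05, adjusted p = 0.56).

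DNAJB1, an HSP40 co-chaperone, had 537, 311, 65.8 and 9.07 labelled fly-scaled reads, a half-life of 1.29 h (slope -0.77, SE 0.05, adjusted p = 4.65e-48). GEMIN4, a component of the SMN complex that assembles small nuclear ribonucleoproteins, had 189, 165, 35.8 and 1.13. RRS1, a ribosome assembly factor, had 414, 313, 68 and 10.2. In both, the 8 h value rests on few reads, 2 for GEMIN4 and 18 for RRS1. Their unlabelled levels rose while the label went: 135, 244, 302 and 367 for GEMIN4 (slope 0.19, SE 0.05, adjusted p = 0.00227) and 321, 591, 621 and 791 for RRS1 (slope 0.17, SE 0.04, adjusted p = 0.0037). Total levels of RRS1 were 735, 904, 689 and 801, highest at 2 h and without a steady direction. BRF2, a subunit of an RNA polymerase III initiation factor, had a half-life of 1.37 h and PUS3, a pseudouridine synthase, one of 1.38 h.

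**Figure D2:**
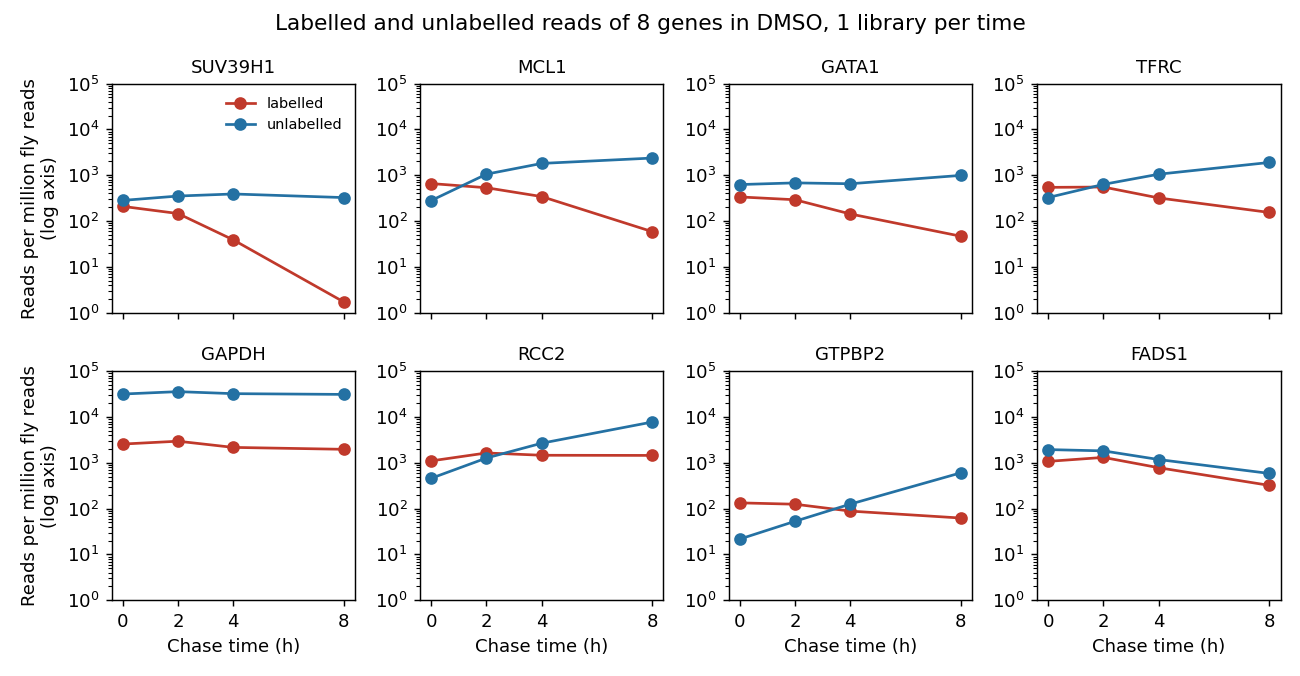
Labelled (red) and unlabelled (blue) reads per 1000000 fly reads (log axis) against hours of chase in DMSO for 8 genes, 1 library per point. SUV39H1 loses label while its unlabelled level stays between 282 and 389.6, MCL1, TFRC, RCC2 and GTPBP2 cross from mostly labelled to mostly unlabelled, and both levels of FADS1 end below their start.

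Mitochondrial mRNAs had the shortest median half-life of the gene lists examined. They are transcribed from the circular genome inside the organelle. Of 12 matched genes 9 had enough labelled reads. In all 9 the label fell faster than in the typical gene, judged on a scale (TMM) set by the bulk of the genes in place of the fly reads. On that scale 2316 of the 8817 genes were faster (26.3%) and 2020 slower (22.9%), 1104 in all without the 8 h library, and the median labelled slope moved from -0.22 to -0.01. The median half-life of the 9 mitochondrial mRNAs was 1.52 h. MT-CYB, a subunit of respiratory complex III, had 3491, 1659, 559 and 64.1 labelled fly-scaled reads (slope -0.71, SE 0.04, adjusted p = 1.87e-73). Its labelled share was small from the start, 10.2%, 3.47%, 1.24% and 0.185%. The unlabelled level of MT-CYB was 30786, 46080.0, 44510.4 and 34620.5 and did not pass the test (slope -0.01, SE 0.03, adjusted p = 0.723). The median labelled share of these 9 genes was 10.2% at 0 h and 0.228% at 8 h. MT-ND1, a subunit of complex I, had 497, 119, 23.4 and 11.3 labelled and 1604, 1256, 846 and 754 unlabelled fly-scaled reads, and the unlabelled reads also fell (slope -0.12, SE 0.03, adjusted p = 0.00515), a call lost without the 8 h library (adjusted p = 0.0545). MTND1P23, a pseudogene on chromosome 1, is a nuclear copy of a mitochondrial gene, and reads could be split between the copies. It held 123992, 143539, 133029 and 128140 total reads at 0, 2, 4 and 8 h, against 3108, 1661, 1190 and 1350 for MT-ND1. Its unlabelled level was 74409, 113598, 95747 and 72476 fly-scaled reads. The values of MT-ND1 thus rest on far fewer reads, and how reads were divided was not tested. The same 9 genes were called faster with each of the 4 libraries left out in turn.

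The next shortest half-lives among the lists were those of immediate-early and feedback regulators. Of 75 such genes 40 were kept. In all 40 the labelled level fell, and in 32 it fell faster than in the typical gene, with none slower (14 faster without the 8 h library). Of all genes tested 88.3% fell, 26.3% were faster and 22.9% slower. The 40 genes had a median half-life of 2.34 h (quartiles 2.00 and 2.91 h), and their median labelled share went from 64.2% to 3.10%. At the same time 28 of the 40 gained unlabelled reads (59.8% of all genes tested did, and 5693 of the 8698 kept genes tested), and the median unlabelled level was 307% of 0 h at 2 h and 608% at 8 h. Relative to the typical gene unlabelled reads rose in 11 and fell in 2 (18.4% and 21.5% of all genes tested), with 7 rises without the 0 h or the 8 h library. On the same scale, total reads rose in 12 of the 40 and fell in 3 (17.1% and 15.5% of all genes tested). Rises were called in 7 without the 0 h library and in 5 without the 8 h library.

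Many of these genes carry AU-rich elements in the 3′ UTR, short motifs at which proteins such as ZFP36 recruit the deadenylation machinery. The 7-base core TATTTAT was sought, T standing for U in RNA, on the transcript strand in 1 GENCODE v29 transcript per gene. It was present in 30 of the 40 regulators, which is 75.0% of them, against 32.4% of the 7770 protein-coding genes in the set with a 3′ UTR and 29.1% of all 18816 genes with one. The first copy in 5 genes, described next, is shown here in 30 bases from the GENCODE v29 transcripts (GRCh38), 5′ to 3′, with the motif in capitals. The sites are chr1:150575806-150575835, minus strand, for MCL1, chr6:37174981-37175010, plus strand, for PIM1, chr14:35401698-35401727, minus strand, for NFKBIA, chr17:78356831-78356860, minus strand, for SOCS3, and chr3:196051051-196051080, minus strand, for TFRC.
MCL1: ccctctacagaTATTTATatcaattcctac
PIM1: tcaatgttatgTATTTATttatttatttat
NFKBIA: accacattttaTATTTATtgtgcttcgagt
SOCS3: aactttgcacaTATTTATatttatattcag
TFRC: tggcactgagaTATTTATtgtttatttatc
The 3′ UTR of PIM1 held 4 copies, that of MCL1 3, and the others 2 each. Overlapping copies were each counted. All 4 of PIM1 overlap and lie within the bases shown, and those of SOCS3 and TFRC also hold the other copy, in small letters.

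MCL1, the anti-apoptotic BCL2 relative, had 658, 533, 341 and 58.4 labelled fly-scaled reads at 0, 2, 4 and 8 h, a half-life of 2.4 h (slope -0.42, SE 0.04, adjusted p = 9.39e-23). Its unlabelled level was 279.8, 1055, 1811 and 2371, higher at each time (slope 0.32, SE 0.06, adjusted p = 0.000248). Labelled reads were 70.2% of all MCL1 reads at 0 h and 2.4% at 8 h, and total MCL1 rose relative to the typical gene (slope 0.12, SE 0.03, adjusted p = 0.0193), but not without the 0 h library (adjusted p = 0.0661) or the 8 h library (adjusted p = 0.0679). PIM1, a kinase induced by STAT5, had 207, 168, 111 and 33.5 labelled and 197, 559, 941 and 1638 unlabelled fly-scaled reads. The labelled reads fell (slope -0.34, SE 0.05, adjusted p = 5.11e-12) and the unlabelled reads rose (slope 0.40, SE 0.05, adjusted p = 1.79e-05). NFKBIA, the inhibitor of NF-κB, had 56.8, 64.6, 21.2 and 2.27 labelled fly-scaled reads, a half-life of 2.03 h, though its label slope did not pass without the 8 h library (adjusted p = 0.159). Its unlabelled level was 29.7, 195, 220.0 and 183, and a line over the whole chase did not pass (slope 0.25, SE 0.11, adjusted p = 0.0618). SOCS3, which dampens cytokine signalling, had 68.9, 18.2, 19.7 and 8.51 labelled fly-scaled reads, with most of the difference before 2 h, and 33.8, 111, 182 and 341 unlabelled.

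MYC, a driver of cell growth, had 176, 71.2, 32.9 and 23.3 labelled and 60.8, 88.6, 292 and 687 unlabelled fly-scaled reads. The label fell with a half-life of 2.76 h (slope -0.36, SE 0.05, adjusted p = 1.60e-10), and the unlabelled reads rose (slope 0.56, SE 0.08, adjusted p = 1.98e-05). From the DMSO and 0 h libraries alone the unlabelled slope was 0.46. Total MYC, 237, 159.8, 325 and 710.0, was lowest at 2 h. JUNB, a subunit of AP-1, had 56.1, 51.3, 25.6 and 6.24 labelled and 50, 292, 365 and 495 unlabelled fly-scaled reads. IER2, an immediate-early gene, had 485, 513, 184 and 49.9 labelled and 453, 2088, 1855 and 2459.5 unlabelled. ID1, an inhibitor of basic helix-loop-helix factors, had 135, 59.6, 49.7 and 7.94 labelled and 98.7, 177, 273 and 726 unlabelled, which rose (slope 0.38, SE 0.05, adjusted p = 2.84e-05). In JUNB, IER2 and NFKBIA the largest step of unlabelled reads was between 0 and 2 h. EGR1, an immediate-early zinc finger factor, had 34.5, 54.6, 12.4 and 4.54 labelled fly-scaled reads. Its fitted half-life, 1.18 h, came from a line that shares its 0 h level with the inhibitor chases. The DMSO and 0 h libraries alone gave 2.32 h.

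Of 34 listed transcription factors of erythroid cells and leukaemia 25 were kept. All 25 lost label, 16 faster and 3 slower than the typical gene, with a median half-life of 2.37 h. Of all genes tested 88.3% lost label, 26.3% were faster and 22.9% slower. Unlabelled reads were gained in 21 of the 25, against 59.8% of all genes tested and 65.5% of kept genes tested. Unlabelled reads rose in 5 and fell in 3 relative to the typical gene (18.4% and 21.5% of all genes tested). KLF1, an activator of globin genes, had 222, 176, 37.3 and 9.64 labelled fly-scaled reads, a half-life of 1.56 h (slope -0.64, SE 0.06, adjusted p = 1.67e-27), and 334, 353, 354 and 832 unlabelled. GATA1, the master erythroid factor, had 336, 291, 143 and 46.5 labelled and 625, 680.4, 651 and 991 unlabelled, and its unlabelled slope did not pass (slope 0.05, SE 0.03, adjusted p = 0.195). GFI1B, a repressor of the same lineage, had the lowest labelled slope of the list, with 201, 145, 43.9 and 5.67 labelled reads. MYB, a factor of immature blood cells, kept label longer, 557, 435, 316 and 153, while its unlabelled level went through 344, 606, 1619 and 2885 (slope 0.37, SE 0.06, adjusted p = 6.55e-05). HHEX, a homeobox factor, had the largest unlabelled slope of the list, 222, 385, 794 and 1664 (slope 0.42, SE 0.04, adjusted p = 4.18e-06). MYBL2, a cell cycle factor of the MYB family, stood at the other end, with 209, 229, 145 and 145 labelled reads and a half-life of 11.1 h. Without the 8 h library 9 of the 25 were called faster and 1 slower, and 6 were called to gain unlabelled reads, or 1 relative to the typical gene.

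Of 553 genes with numbered zinc finger names, a family with many KRAB-type repressors, 181 were kept. Label fell faster than in the typical gene in 121 and slower in 3 (26.3% and 22.9% of all genes tested). Without the 8 h library 34 were called faster and 2 slower. The median half-life was 2.51 h. ZNF48 was the fastest, with 64.2, 40.6, 10.2 and 0.567 labelled fly-scaled reads, and few reads at 8 h. ZNF90 was the slowest, with 295, 372, 299.7 and 269. Unlabelled reads rose in 137 of the 181, against 59.8% of all genes tested and 65.5% of kept genes tested. The median unlabelled level of the 181 was 297% of 0 h at 8 h, against 278% over all kept genes. Relative to the typical gene 30 rose and 14 fell (18.4% and 21.5% of all genes tested), 19 and 10 without the 0 h library and 26 and 4 without the 8 h library.

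Label was lost slowly in ribosomal protein and respiratory chain genes. All 78 matched cytosolic ribosomal protein genes were kept, and in 76 the label fell more slowly than in the typical gene, with none faster (42 without the 8 h library). Of all genes tested 22.9% were slower and 26.3% faster. The 78 genes had a median half-life of 13.6 h, and their labelled share barely moved, 15.8% at 0 h and 13.6% at 8 h. RPLP0, a protein of the ribosomal stalk, had 5302, 6231, 4369 and 3898 labelled and 29881, 32965, 27646 and 25674 unlabelled fly-scaled reads. RPS7 was the slowest, with 337, 425, 395 and 329 labelled reads, and its slope did not pass (slope -0.01, SE 0.03, adjusted p = 0.796). RPL29 was the fastest, with 729.8, 942, 433 and 326 (slope -0.18, SE 0.03, adjusted p = 7.04e-08). EEF1A1, the translation elongation factor, had 19194, 23684, 18438 and 15663 labelled reads and a half-life of 16.5 h. Its labelled slope did not pass without the 4 h library (adjusted p = 0.055) or the 8 h library (adjusted p = 0.556). None of the 78 gained unlabelled reads and 11 lost them, while 1 was called to lose them without the 4 h library and none without the 8 h library (2.3% of all genes tested lost them). Relative to the typical gene, unlabelled reads fell in all 78 (21.5% of all genes tested), 67 without the 8 h library. Total reads fell on that scale in 62 (15.5% of all genes tested) and rose in none. Per fly read 5 fell (3.78% of all tested) and none rose, with 1 falling without the 4 h library and 0 without the 8 h library. Without the latter 13 fell relative to the typical gene.

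Among 77 nuclear genes for oxidative phosphorylation 68 lost label more slowly and 2 faster than the typical gene, with a median half-life of 11.4 h (35 and 1 without the 8 h library). Of all genes tested 22.9% were slower and 26.3% faster, shares that also apply to the proteasome genes below. ATP5MG, an ATP synthase subunit, had 1862, 2249.9, 1953 and 1748 labelled and 13284, 14451, 14526 and 13354 unlabelled fly-scaled reads, and neither slope passed, with adjusted p = 0.251 and 0.931. NDUFV3, a complex I subunit, was the exception with the lowest slope, 593, 535, 227 and 108 labelled reads and a half-life of 2.98 h. The mitochondrially encoded and the nuclear-encoded genes of this pathway thus had the shortest and one of the longest median half-lives among the lists. Proteasome genes were slow in 25 of 31 cases and fast in 2, with a median half-life of 8.54 h (11 and 1 without the 8 h library). PSMD7, of the regulatory particle, had a half-life of 3.43 h, while PSMC6, an ATPase of the same particle, kept 147, 166, 167 and 122 labelled reads as its unlabelled level rose through 105, 185, 327 and 605 (slope 0.33, SE 0.04, adjusted p = 8.49e-06).

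Globins are the main products of erythroid cells. HBG2, the gamma globin, had 14299, 15488, 11866 and 10382 labelled and 23892, 25889, 23725 and 20788 unlabelled fly-scaled reads, with a half-life of 12 h. Its labelled slope did not pass without the 8 h library (adjusted p = 0.159), and its reads cannot be separated with certainty from those of the near-identical HBG1. HBZ, the embryonic zeta globin, had 400.1, 521, 419.5 and 331 labelled reads, a share of 4.28%, 5.4%, 3.96% and 4.35%, and its labelled slope did not pass (slope -0.05, SE 0.03, adjusted p = 0.119). CPOX, an enzyme of haem synthesis, had 71.6, 61.3, 49 and 36.3 labelled reads and 25.7, 48, 78.9 and 259 unlabelled, which rose (slope 0.45, SE 0.05, adjusted p = 3.71e-06). Of the 20 kept globin and haem genes 8 lost label more slowly and 3 faster than the typical gene (22.9% and 26.3% of all genes tested). Total reads fell in 11 and rose in 1 relative to the typical gene (15.5% and 17.1% of all genes tested). Per fly read, 2 fell and 2 rose (3.78% and 24.5%). With the 8 h library left out, 3 were slower and 2 faster in label, and total reads fell in 3. GAPDH, a glycolytic enzyme, had 2573, 2971, 2176 and 1976 labelled and 31822, 35923, 32455 and 31248 unlabelled fly-scaled reads. TFRC, the transferrin receptor that brings iron into the cell, had 543, 552, 319 and 154 labelled and 326, 632, 1053 and 1901 unlabelled reads (slope 0.28, SE 0.03, adjusted p = 6.95e-06).

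**Figure D3:**
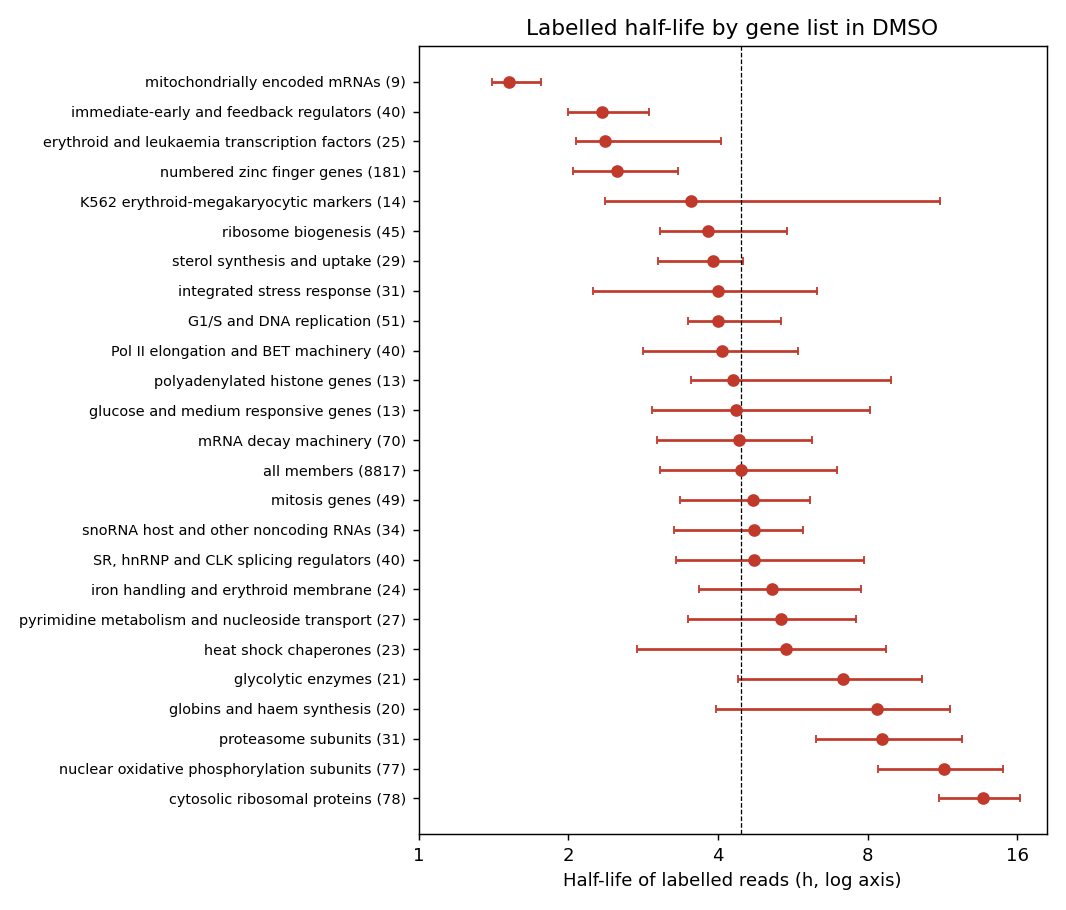
Half-life of labelled reads in DMSO (h, log axis) for each gene list with at least 9 kept genes, numbers of genes in brackets. Points are medians over genes with a slope below 0, bars run from the lower to the upper quartile of genes, and the dashed line is the median of all kept genes, 4.45 h. Mitochondrially encoded mRNAs are at 1.52 h and cytosolic ribosomal proteins at 13.6 h.

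Other genes in common use as references or responders lay between these ends. ACTB, cytoskeletal actin, had 6623, 7810.0, 4804 and 3498 labelled fly-scaled reads and a half-life of 6.73 h, and its unlabelled slope did not pass (slope -0.03, SE 0.02, adjusted p = 0.364). ODC1, ornithine decarboxylase of polyamine synthesis, had 1166, 1234, 870.5 and 531 labelled and 1051, 1517, 1954 and 2808 unlabelled reads, a half-life of 6.24 h. The labelled slope of ODC1 did not pass without the 8 h library (adjusted p = 0.0971). ATF4, the factor of the integrated stress response, had 3001, 3363, 2169.9 and 851 labelled and 2491, 4719, 7074 and 6609.6 unlabelled, a half-life of 3.99 h. TXNIP, an inhibitor of glucose uptake, had 597, 349, 184 and 40.8 labelled and 230.4, 1052, 1378 and 1409.8 unlabelled, with its largest unlabelled step before 2 h and a half-life of 2.21 h. BRD2, a BET family protein, had 2094, 1550.4, 618 and 128 labelled reads and a half-life of 1.97 h, and its unlabelled slope did not pass (slope 0.04, SE 0.03, adjusted p = 0.297).

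Long noncoding RNAs spanned much of the same range. NEAT1, which builds paraspeckles, had 236, 162, 95.7 and 29.5 labelled fly-scaled reads and a half-life of 2.48 h. MALAT1, a nuclear speckle RNA, had 2574, 2664, 1229 and 901, a half-life of 4.8 h. GAS5, a host of small nucleolar RNAs, had 5452, 5396, 3915 and 3315, a half-life of 10.4 h, and SNHG1, another host, 7728, 8417, 5719 and 3306, a half-life of 5.92 h. Without the 8 h library the labelled slopes of GAS5 and SNHG1 did not pass (adjusted p = 0.133 and 0.0949). The 127 lincRNAs in the set had a median half-life of 3.95 h and protein-coding genes one of 4.37 h.

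Some genes showed no loss of label. A labelled slope at or above 0 was fitted for 112 genes. Among genes with at least 100 labelled reads on average, the 10 highest slopes were those of 7 processed pseudogenes and of LMNB2, SEC61G and STX3. LMNB2, a protein of the nuclear lamina, had 161, 211, 255 and 242 labelled and 192, 248, 382 and 720.2 unlabelled fly-scaled reads. STX3, a membrane fusion protein, had 124, 179.6, 154 and 195 labelled and 81.8, 128, 437 and 959.5 unlabelled, and its total reads rose relative to the typical gene (slope 0.26, SE 0.02, adjusted p = 5.75e-05). SEC61G, a subunit of the translocon, had 143, 144, 129 and 178 labelled and 674, 892, 733 and 996 unlabelled. Further protein-coding genes with flat label, chosen after their values were seen, included RCC2, a mitotic regulator, with 1104, 1646, 1465 and 1454 labelled and 460.2, 1276, 2689 and 7812 unlabelled reads, and VIM, an intermediate filament protein, with 541, 726, 568 and 713 and 632, 1264, 1908 and 5367. None of the labelled slopes of these 5 genes passed the test, and unlabelled reads rose in all but SEC61G.

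Among gene types with at least 100 genes in the set, processed pseudogenes had the longest median half-life. RPS3AP26, a copy of RPS3A, had a labelled share of 91.6%, 95.8%, 86% and 93.7% over the chase. At 8 h 169 genes had over 50% labelled reads, 131 of them processed pseudogenes and 14 protein-coding, and at 0 h 56 genes had over 90%. Over the 483 processed pseudogenes in the set the median half-life was 10.9 h, and the median share was 35.9% at 0 h and 22.9% at 8 h. Processed pseudogenes are copies of mRNAs, so reads could be split between a copy and its parent gene, and their values are uncertain. The part of sequence differences between copies in the labelled call was not tested.

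Unlabelled reads per fly read rose in 5693 of 8698 genes tested (6622 of 11066 over all genes, 59.8%) and fell in 204 (255 over all, 2.3%). Relative to the typical gene, 1860 of the kept genes rose and 2014 fell (21.4% and 23.2% of the 8698 tested). Over all genes tested these shares were 18.4% and 21.5%. Most list counts in this report stand beside shares of all genes tested, which include genes under the labelled minimum. Leaving out the 8 h library, 4244 genes were called per fly read over all genes, against 6877, and 2723 relative to the typical gene, against 4422. The unlabelled slope followed the labelled share at 0 h across genes (Spearman rho 0.71, Pearson r 0.71, 8698 genes). This is a description across genes, which are not independent, and both quantities contain the 0 h unlabelled reads. The unlabelled slope followed the labelled slope weakly (Spearman rho -0.15).

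Gains of unlabelled reads relative to the typical gene were ranked among genes past the threshold with at least 100 unlabelled reads on average and a level above that of 0 h at 2, 4 and 8 h on the TMM scale. The 10 largest were in GTPBP2, PUM3, TRIB2, KLHL23, PPWD1, HEMGN, MKS1, TAF1, SLC40A1 and TMEM87B. GTPBP2 (chr6:43605316-43629162, minus strand), which helps to rescue stalled ribosomes, had 21.6, 53, 126 and 607 unlabelled fly-scaled reads (slope 0.61, SE 0.04, adjusted p = 6.15e-07) and 134, 125, 88.4 and 62.4 labelled, a share of 86.1%, 70.2%, 41.3% and 9.32%. TRIB2, a pseudokinase, had 86.5, 164, 501 and 1751 unlabelled, and its total went from 243 to 1856 (slope 0.33, SE 0.03, adjusted p = 0.000106). TAF1, the largest subunit of TFIID, had 37.2, 335, 995 and 1491 unlabelled and 139, 230.1, 338 and 159 labelled reads. In TAF1 the labelled reads were highest at 4 h. PUM3, a nucleolar protein with Pumilio repeats, had 25.7, 96.8, 213 and 661 unlabelled (slope 0.60, SE 0.05, adjusted p = 2.40e-06). The erythroid factor HEMGN had 27, 75.3, 189 and 474 and SLC40A1, the iron exporter ferroportin, 14.2, 23.2, 52.6 and 233.

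Of the 10 largest losses, ranked likewise among genes below 0 h at each later time on that scale, 5 were in processed pseudogenes. In RPS24P6, a copy of RPS24, the unlabelled level was 8238, 9343, 219 and 146, with its step between 2 and 4 h. The others were FADS1, UCP2, REEP6, CKB and TM7SF2. FADS1 (chr11:61799625-61829318, minus strand), a fatty acid desaturase, had 1949.6, 1827, 1181 and 587 unlabelled fly-scaled reads (slope -0.25, SE 0.03, adjusted p = 1.25e-05) and 1078, 1315, 783 and 322 labelled (slope -0.25, SE 0.03, adjusted p = 4.43e-13). Its labelled share stayed at 35.6%, 41.9%, 39.9% and 35.4%. UCP2, a mitochondrial carrier, had 813, 794, 477 and 236 unlabelled (slope -0.24, SE 0.04, adjusted p = 7.70e-05). CKB, a creatine kinase, had 2100.3, 2152, 1255 and 758 (slope -0.21, SE 0.03, adjusted p = 7.16e-05), and TM7SF2, a sterol reductase, 149, 109, 82.6 and 52.7 (slope -0.20, SE 0.05, adjusted p = 0.00225), the last call being lost without the 8 h library (adjusted p = 0.0603). In these 5 genes the labelled level too was lowest at 8 h.

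FADS1 and TM7SF2 belong to the list of sterol synthesis and uptake, which holds many targets of SREBP factors. Of its 29 kept genes total reads fell in 19 and rose in 2 relative to the typical gene (15.5% and 17.1% of all genes tested), with a median slope of -0.12 (0.004 over all kept genes). Per fly read 10 fell and 2 rose (3.78% and 24.5% of all genes tested). When the 8 h library was left out, 14 fell and 1 rose relative to the typical gene, and 1 fell and 1 rose per fly read. MSMO1, with 104, 87.7, 18.3 and 10.8 labelled fly-scaled reads, lost label fastest in the list, and HMGCS1, HMG-CoA synthase, had 437, 411, 210.5 and 74.3 labelled and 197, 265, 361 and 565 unlabelled reads.

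Mitosis genes gained unlabelled reads. Per fly read 46 of 49 kept genes rose and none fell (59.8% and 2.3% of all genes tested, 65.5% and 2.35% of kept genes tested). Relative to the typical gene unlabelled reads rose in 29 and fell in 2 (18.4% and 21.5%), 18 and 2 without the 8 h library. Total reads rose in 24 and fell in 3 relative to it, against 17.1% and 15.5% of all genes tested. Per fly read 27 rose and 0 fell in total reads, against 24.5% and 3.78%. For total reads, fits without the 8 h library called 7 as risen and 1 as fallen, and 9 as risen per fly read. PLK1, a mitotic kinase, had 849, 1747, 7231 and 11047 unlabelled fly-scaled reads (slope 0.51, SE 0.05, adjusted p = 3.18e-06) and 2398, 2368, 2407 and 1223 labelled. BUB1, a spindle checkpoint kinase, had 21.6, 37.2, 76.7 and 219 unlabelled and 29.7, 40.6, 39.5 and 26.7 labelled. CCNB1, the mitotic cyclin, differed, with 535, 665, 895 and 1321 unlabelled and 1060.3, 1155, 601 and 230.2 labelled, and its total fell relative to the typical gene (slope -0.07, SE 0.02, adjusted p = 0.0104), though not without the 8 h library (adjusted p = 0.0976). CENPM, a centromere protein, and BIRC5, survivin, were the others that fell. Of 45 ribosome biogenesis genes total reads rose in 19 and fell in 8 relative to the typical gene, where 17.1% and 15.5% of all genes did. Without the 8 h library 5 rose and 3 fell on that scale. Per fly read 24 rose and 1 fell, against 24.5% and 3.78% of all genes tested. WDR75, a nucleolar factor, rose (slope 0.25, SE 0.04, adjusted p = 0.000523) and BOP1, a pre-rRNA processing factor, fell (slope -0.21, SE 0.04, adjusted p = 0.00103).

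Total reads after the wash differed with the length of the gene. Over all genes tested, total reads relative to the typical gene rose in 2012 (17.1%) and fell in 1823 (15.5%), among them 1734 and 1605 of the genes kept here. Per fly read 2415 of the kept genes rose and 347 fell (27.4% and 3.94% of them, against 24.5% and 3.78% of all genes tested). Without the 8 h library 818 genes were called relative to the typical gene. Gene span, the genomic distance from start to end in GENCODE v29, was then set beside these calls, a comparison chosen after the data were seen. Among 618 protein-coding genes with a span of up to 5 kb, total reads relative to the typical gene rose in 6.15% and fell in 44.0%. Among 871 genes of 100 to 200 kb, they rose in 30.8% and fell in 5.05% on the same scale. The median total level at 8 h, as a log2 ratio to 0 h per fly read, was -0.02 up to 5 kb, 0.16 from 5 to 10 kb, 0.37 from 10 to 20 kb, 0.56 from 20 to 50 kb, 0.79 from 50 to 100 kb and 0.89 above 100 kb in both of the longest groups. At 2 h it already ran from 0.16 up to 5 kb to 0.46 from 100 to 200 kb. Labelled loss did not follow span: the median labelled slope lay between -0.24 and -0.22 in all 7 groups, and the labelled log2 ratio at 2 h between 0.07 and 0.10. Short genes had more reads, a mean-count median of 712 up to 5 kb against 238 above 200 kb, and the part of read number was not tested.

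The order by span was also present within genes of like labelling. Among genes with under 40% labelled reads at 0 h, the median total log2 ratio at 8 h was -0.18 for 690 genes under 10 kb and 0.37 for 169 genes over 100 kb. With 40% to 60% labelled it was 0.33 and 0.89, and with over 60% labelled 0.55 and 1.01. In JQ1 at 8 h the median went from -0.37 up to 5 kb to 0.60 from 100 to 200 kb. In AZ-5576 it ran from 0.04 up to 5 kb to 0.14 above 200 kb at 2 h and from -0.46 to -0.11 at 4 h, and lay between -1.09 and -0.82 in all 7 groups at 8 h, highest in the longest genes. The 3 chases share the 0 h library, and its part in this order was not tested. Across 8763 genes the rank correlation of span with the total slope was 0.37 (Pearson r 0.18) and with the labelled slope -0.07, given as a description.

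**Figure D4:**
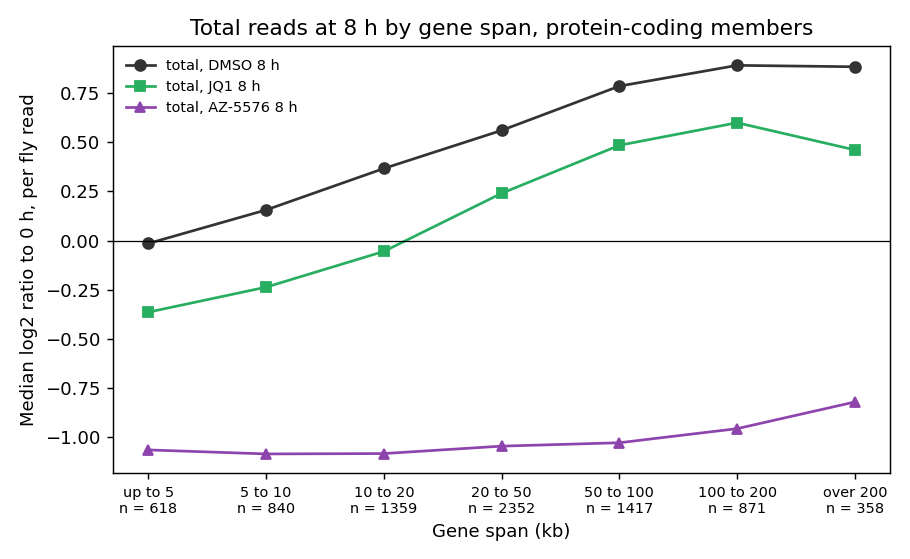
Median log2 ratio of total reads at 8 h to the shared 0 h library, per fly read (y axis), for protein-coding genes grouped by gene span (x axis, kb, with the number of genes). In DMSO the median rises from -0.02 in the shortest genes to 0.89 in the longest, in AZ-5576 it stays between -1.09 and -0.82.

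The 3′ UTR motifs were compared over all 7770 genes as well, also chosen after the data were seen. TATTTAT was present in 34.6% of the 777 genes with the fastest loss and in 21.2% of the 777 with the slowest. A Pumilio recognition motif, TGTANATA, was present in 32.6% and 17.5%, against 28.3% of the protein-coding genes in the set and 23.6% of all genes with a 3′ UTR. The searches were separate, so copies of the motifs could share bases. The 3′ UTRs differed in length too, with a median of 1328 bases in the fastest and 591 in the slowest group. Within groups of like length the difference varied. For 1000 to 2000 bases the median half-life was 4.02 h in 530 genes with TATTTAT and 4.42 h in 1186 without. From 2000 to 4000 bases it was 3.88 h and 3.97 h, and above 4000 bases 3.92 h and 3.74 h. In shorter 3′ UTRs it was 5.465 h and 5.842 h up to 300 bases, 4.61 h and 4.58 h from 300 to 600, and 4.22 h and 4.38 h from 600 to 1000. With TGTANATA it was 4.64 h in 90 genes and without it 5.88 h in 1197 up to 300 bases, 4.17 h and 4.65 h from 300 to 600 bases, and 3.79 h and 4.00 h above 4000 bases. Between these lengths it was 4.04 h and 4.42 h from 600 to 1000 bases, 4.18 h and 4.38 h from 1000 to 2000, and 3.85 h and 3.95 h from 2000 to 4000. By length alone it was 5.78 h up to 300 bases and 3.85 h above 4000. These are matches of letters in 1 transcript per gene, and 3′ ends in use in K562 were not determined.

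The loss of label in DMSO was last compared with the parallel chases, which share its 0 h library. The labelled slope differed from that in JQ1 in 59 of 8817 genes, lower in DMSO in 28 and higher in 31 (0.318% and 0.352% of those tested, 0.669% together). It differed from that in AZ-5576 in 419, lower in DMSO in 311 and higher in 108 (3.53% and 1.22%, 4.75% together). The balance depended on the scale and on 1 library. With TMM 57 were lower and 34 higher against JQ1, and 236 lower and 331 higher against AZ-5576. Without the 8 h DMSO library 5 were lower and 5 higher against JQ1, and 2 lower and 33 higher against AZ-5576. Without the 0 h library 87 and 768 differed in all. Without the 2 h library 639 differed from AZ-5576, and without the 4 h library 272. Unlabelled slopes differed far more often from AZ-5576: 8885 of 11066 genes were higher in DMSO (80.3%) and 41 lower (0.371%). From JQ1, 1439 were higher in DMSO (13%) and 118 lower (1.07%). In NFKBIA the labelled slope was -0.49 in DMSO and -1.27 in AZ-5576, and in MYC -0.36 and -0.91. HEXIM1, an inhibitor of P-TEFb, had 226, 191, 95 and 28.4 labelled fly-scaled reads in DMSO, with a slope of -0.38 against -0.13 in JQ1. SUV39H1 went the other way from NFKBIA, with -0.82 in DMSO and -0.50 in AZ-5576. It was named for its low slope in DMSO, which favours a difference in that direction. Each of these differences in slope passed the test of the difference itself.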

How the data were processed

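Deposited gene counts (total, labelled and fly reads) for 10 libraries were used. Per the submitters' processing notes, the authors used bcl2fastq 2.17.1.14, Trim Galore 0.6.5, bedtools, hg38 and dm6 to make these counts. The aligner and the rule that calls a read labelled are not given in the sources used here. No replicate exists (1 library per condition), so p-values measure scatter about a line over times, not differences between cultures. The scatter was taken from all chases (6 residual degrees of freedom) and assumed alike in every chase. In edgeR and limma the spread of a gene is also drawn towards that of all genes. Very small p-values rest on this sharing between genes and would not follow from 6 degrees of freedom alone.

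Slopes of log2 counts per hour were tested in edgeR 4.0.16 (R 4.3.3) by quasi-likelihood, with genes at a mean count of at least 20, scaled by the fly total or by TMM within each kind of count. The ratio log2((labelled + 0.5)/(unlabelled + 0.5)) was tested in limma 3.58.1. Benjamini-Hochberg adjustment covered all genes tested, with a threshold of 0.05. The step was tested on simulated data. Alternatives included DESeq2 1.42.0, other scales and filters, and leaving out each library. Symbols matched 55381 of 59204 identifiers. Gene span and 3′ UTRs came from GENCODE v29 (GRCh38), which held 55838 of the identifiers.

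Named were the 10 lowest labelled slopes per fly read (levels lower at each step) and the 10 highest, the 10 highest and 10 lowest unlabelled slopes on the TMM scale (levels above, or below, 0 h at each later time), all with a mean count of at least 100 in the 4 libraries, a panel of 30 genes, and the lowest and highest slopes in each list. Of these, 2 genes are not reported here. The genes, lists and comparisons were chosen with earlier results of these data known, and list counts support nothing on their own. Motif and span comparisons were added after the data were seen.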

Additional observations from a re-analysis of the deposited data

Results flagged for a closer look

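Among the genes named by rule, 18 had a labelled slope in DMSO that differed from the slope in an inhibitor chase by edgeR's test of that difference, TRIB2 in both. Only those genes were screened. SUV39H1 and MT-CYB were named for a low labelled slope in DMSO and LMNB2 for a high one. For these genes that choice favours a difference in the direction found. All slopes are log2 units per hour per fly read, and the chases share the 0 h library. Over all 8817 genes such a difference was called in 0.669% against JQ1 and in 4.75% against AZ-5576. Without the 8 h DMSO library 10 and 35 genes were called. Against JQ1, HEMGN had -0.14 in DMSO and -0.45 in the inhibitor (difference 0.317, SE 0.06, adjusted p = 0.000123). PIM1 had -0.34 in DMSO and -0.56 in the inhibitor (difference 0.214, SE 0.05, adjusted p = 0.012), TRIB2 -0.11 in DMSO and -0.29 in the inhibitor (difference 0.176, SE 0.04, adjusted p = 0.0144) and MYB -0.25 in DMSO and -0.41 in the inhibitor (difference 0.16, SE 0.04, adjusted p = 0.00667), so these 4 lost label more slowly in DMSO. HEXIM1 had -0.38 in DMSO and -0.13 in the inhibitor (difference -0.257, SE 0.04, adjusted p = 9.72e-06) and TXNIP -0.45 in DMSO and -0.28 in the inhibitor (difference -0.167, SE 0.04, adjusted p = 0.0112), and these lost it faster in DMSO.

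Against AZ-5576 the larger differences were in short-lived regulators. NFKBIA had -0.49 in DMSO and -1.27 in the inhibitor (difference 0.779, SE 0.15, adjusted p = 0.000125), SOCS3 -0.36 in DMSO and -1.12 in the inhibitor (difference 0.755, SE 0.13, adjusted p = 1.28e-05), MYC -0.36 in DMSO and -0.91 in the inhibitor (difference 0.548, SE 0.08, adjusted p = 3.58e-08) and JUNB -0.48 in DMSO and -0.81 in the inhibitor (difference 0.333, SE 0.09, adjusted p = 0.0157). Label was also lost more slowly in DMSO in TAF1, 0.00 in DMSO and -0.25 in the inhibitor (difference 0.259, SE 0.04, adjusted p = 3.71e-07), PUM3, -0.04 in DMSO and -0.27 in the inhibitor (difference 0.225, SE 0.05, adjusted p = 0.00204), TRIB2, -0.11 in DMSO and -0.26 in the inhibitor (difference 0.143, SE 0.04, adjusted p = 0.0301), and LMNB2, 0.05 in DMSO and -0.09 in the inhibitor (difference 0.135, SE 0.04, adjusted p = 0.0214). In LMNB2 and TAF1 the DMSO slope was not below 0.

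Faster loss in DMSO than in AZ-5576 was found in SUV39H1, -0.82 in DMSO and -0.50 in the inhibitor (difference -0.32, SE 0.06, adjusted p = 9.82e-05), NEAT1, -0.40 in DMSO and -0.27 in the inhibitor (difference -0.135, SE 0.04, adjusted p = 0.0485), GATA1, -0.42 in DMSO and -0.29 in the inhibitor (difference -0.129, SE 0.04, adjusted p = 0.0412), BRD2, -0.51 in DMSO and -0.40 in the inhibitor (difference -0.106, SE 0.03, adjusted p = 0.0333), and the mitochondrial MT-CYB, -0.71 in DMSO and -0.61 in the inhibitor (difference -0.105, SE 0.03, adjusted p = 0.0454). The adjusted p of NEAT1 and MT-CYB lay close to the threshold.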

How the results depend on the processing

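No analysis paired by replicate was possible because each condition had 1 library. Leaving out 1 of the 4 DMSO-chase libraries at a time moved the counts of called genes, lowest each time without the 8 h library. Labelled loss per fly read was called in 3360 to 8107 genes (7791 with all), unlabelled change per fly read in 4244 to 6697 (6877), and the labelled to unlabelled ratio in 6693 to 8012 (7970). Relative to the typical gene these ranges were 1104 to 4313 for labelled (4336), 2723 to 4237 for unlabelled (4422) and 818 to 3456 for total reads (3835). The median half-life ran from 4.04 to 5.16 h, where a move of over 10% was counted as a change, a limit chosen here since no replicate error exists. Slopes differed between DMSO and JQ1 in 10 to 87 genes (59), with DESeq2 in 37 and with TMM in 91. Between DMSO and AZ-5576 they differed in 35 to 768 genes (419), and with DESeq2 in 279. Fits on the DMSO and 0 h libraries alone, without a filter, with other scales, another pseudocount or DESeq2 kept the other counts within 1.5 times. Of the slopes of named genes under these settings 3369 kept direction and side of the threshold, 167 no longer passed, 58 newly passed and 1 reversed. That was RPL38P3, a processed pseudogene, whose labelled slope relative to the typical gene ran from -0.030 without the 8 h library to 0.086 without the 4 h library. With no cells kept free of 4-thiouridine, the rate of reads called labelled by sequence error is unknown here, which limits shares near 0.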

Other observations

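Genes of the integrated stress response held both fast and slow RNAs. Of 31 kept genes all 31 lost label, 14 faster and 8 slower than the typical gene (8 and 0 without the 8 h library), and 22 gained unlabelled reads. Over all genes tested 88.3% lost label and 59.8% gained unlabelled reads, the latter in 65.5% of the kept genes tested. In label, 26.3% of all genes tested were faster and 22.9% slower than the typical gene. In unlabelled reads, 18.4% rose and 21.5% fell relative to the typical gene. On that last scale 6 of the 31 rose and 5 fell (3 and 5 without the 0 h library, 4 and 4 without the 8 h library). GDF15, a secreted stress factor, had 247, 125, 38 and 10.2 labelled fly-scaled reads at 0, 2, 4 and 8 h and a half-life of 1.51 h (slope -0.66, SE 0.06, adjusted p = 4.91e-30). DDIT4, an inhibitor of mTORC1, had 143, 43.9, 21.9 and 12.5 labelled and 95.3, 137, 295 and 649 unlabelled, and the latter rose (slope 0.41, SE 0.05, adjusted p = 7.26e-06). Among 23 heat shock chaperones 18 gained unlabelled reads, and relative to the typical gene 4 rose and 3 fell (2 and 3 without the 8 h library). DNAJB1 is the fast member described above, and AHSA1, an activator of HSP90, had 389, 913, 1414 and 2899 unlabelled reads (slope 0.35, SE 0.03, adjusted p = 3.18e-06). Of 51 genes of G1/S and DNA replication all lost label and 36 gained unlabelled reads, and relative to the typical gene 10 rose and 10 fell (9 and 6 without the 8 h library). E2F2 was the fastest, with 106, 100.2, 27.8 and 3.4 labelled reads and a half-life of 1.53 h, and RPA1, of the single-strand binding protein, the slowest with 105, 139, 69.4 and 87.3.

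Glycolytic genes were mixed, with 10 of 21 losing label more slowly and 4 faster than the typical gene (4 and 1 without the 8 h library), and a median half-life of 7.15 h. Of all genes tested 22.9% were slower and 26.3% faster. SLC2A3, a glucose transporter, had 99.3, 235, 485 and 1229 unlabelled fly-scaled reads (slope 0.44, SE 0.03, adjusted p = 6.15e-07). Among 70 genes of the mRNA decay machinery 69 lost label and 52 gained unlabelled reads, with a median half-life of 4.41 h. Unlabelled reads rose in 18 and fell in 13 relative to the typical gene (11 and 7 without the 8 h library). Of all genes tested 88.3% lost label and 59.8% gained unlabelled reads, the latter in 65.5% of the kept genes tested. Relative to the typical gene 18.4% rose and 21.5% fell in unlabelled reads. The same shares apply to the splicing and elongation genes below. In 40 genes of splicing regulation 39 lost label and 28 gained unlabelled reads, while relative to the typical gene 8 rose and 14 fell (9 and 6 without the 8 h library). CLK1, a kinase of splicing factors, had 154, 135, 59.9 and 6.81 labelled reads and a half-life of 1.97 h. HNRNPF had 710.2, 2184, 4173 and 7026 unlabelled reads (slope 0.38, SE 0.04, adjusted p = 3.48e-06). In 40 genes of transcription elongation 34 gained unlabelled reads, and relative to the typical gene 14 rose and 6 fell (8 and 3 without the 8 h library). MED26, a Mediator subunit, had the lowest labelled slope, with 77, 41.4, 12.4 and 1.7 labelled reads. FBXL5, the iron-sensing ubiquitin ligase subunit, had the lowest labelled slope among genes of iron handling, with 61.5, 47.2, 13.9 and 1.7 labelled reads and a half-life of 1.48 h.

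Among genes chosen after their values were seen, total reads relative to the typical gene rose in IGF2R, the receptor that carries lysosomal enzymes, with total levels of 74.3, 196, 311 and 611 fly-scaled reads (slope 0.31, SE 0.04, adjusted p = 0.000284). They fell in HOXB8, a homeobox factor, with 124, 91.1, 68 and 32.9 (slope -0.26, SE 0.04, adjusted p = 0.000431), a call lost without the 8 h library (adjusted p = 0.0569), and in PLCD1, a phospholipase C, with 130.4, 132, 70.9 and 51 (slope -0.25, SE 0.03, adjusted p = 0.000368).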
